A study of Rattus norvegicus with 18 samples.

Results

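The insulin-like growth factor (IGF) family was followed in rat hippocampus after pilocarpine-induced status epilepticus (SE). The 9 members were the ligands Igf1 and Igf2, the receptors Igf1r and Igf2r, and the binding proteins Igfbp2, Igfbp3, Igfbp4, Igfbp5 and Igfbp6. They were chosen by the gene symbol annotated to each array probe, which gave 13 of 33849 gene probes and 9 of 12344 named genes. Whole hippocampi of adult male Wistar rats were hybridized to CodeLink Rat Whole Genome arrays, a platform with a single colour and 1 array per sample, and 18 arrays were available. The D3 group (n = 5) was killed 3 days after SE, the D7 group (n = 5) 7 days after SE, and the Chronic group (n = 5) soon after the first spontaneous seizure. All pilocarpine rats had received scopolamine methylnitrate, then a single injection of pilocarpine, a muscarinic agonist, and diazepam to stop SE, whereas the control rats received saline in place of them. The Control group (n = 3) was injected with saline and held 1 array for each of the 3 times, so that age and array cannot be told apart within it.

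IGF-I and IGF-II are small secreted proteins that resemble proinsulin. Both activate the IGF-I receptor, a tyrosine kinase that signals through the PI3K and Akt route and the Ras and MAP kinase route, whereas the IGF-II receptor mainly takes IGF-II up for degradation and sorts lysosomal enzymes. The binding proteins hold the ligands in the extracellular space and either withhold or deliver them. In the adult brain, Igf1 is known from some neurons and from activated microglia, and Igf2 from the choroid plexus and the meninges, tissues that border the hippocampus.

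All values are normalized intensities, that is, spot signals after subtraction of background, scaled within each array to a median near 1. They can be compared between arrays for 1 probe, but not between probes. Changes are log2 fold changes of these intensities with their standard error, from a limma model of the 4 groups. A gene was called higher or lower at an adjusted p under 0.05 over all 33800 tested probes together with a change of at least 2-fold. The median over all 12331 named genes with a tested probe was -0.10 at D3, -0.12 at D7 and -0.12 in Chronic against Control, and the members' changes are to be read against it. Precision is set by the number of arrays.

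The arrays differed in the tissue they held as well as in their group. Of 13 measured markers of microglia and macrophages, 9 were called higher at D3, 11 at D7 and 9 in Chronic, among them Aif1 at every time and Csf1r and Cx3cr1 at D7. The share of all named genes called higher was 5.09% at D3, 3.8% at D7 and 2.87% in Chronic. Markers of the choroid plexus ranged widely within every group, with a summed intensity of 25.2 to 377 at D3, 26.8 to 463 at D7, 38.7 to 418 in Chronic and 41.4 to 317 in Control. Most of the high sums came from Ttr, the thyroxine carrier of choroid plexus epithelium, whose spots were flagged as saturated on 5 arrays and were used in the sum at their value. The saturated spots were missing from the fit, so that no change of Ttr is given. In Chronic, 14 of the 15 markers, Ttr counted without those spots, had a change above 0 against Control, with a median of 1.19. Against D3 and D7, all 15 were above 0 in Chronic, with medians of 1.31 and 0.96. In these 3 comparisons 0 of the markers were called. The 6 measured markers of excitatory neurons summed to at least 156.7 on each Control array and at most 136.0 on each pilocarpine array. Of these markers, 2 were called lower at D3 and 1 in Chronic, and 1 had a change above 0 at every time. Sums of interneuron markers overlapped with Control. The 3 measured housekeeping genes summed to at least 335.3 in Control and at most 295.5 after SE. The part of either fall in the lower values of Igf2r, Igfbp5 and Grb10 was not tested. Since the arrays measure bulk tissue, fewer cells of a type and less RNA per cell cannot be told apart.

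Igf1 was the member that rose after SE, at all 3 times. It had intensities of 11.4, 7.44, 8.56, 8.59 and 7.94 at D3, 6.20, 5.10, 18.7, 8.70 and 9.63 at D7, 12.3, 11.99, 8.18, 4.68 and 7.30 in Chronic, and 1.70, 1.94 and 1.58 in Control. Every one of the 15 pilocarpine arrays lay above every Control array, and the spot was flagged as good on all 18 arrays. The log2 fold change over Control was 2.32 ± 0.32 at D3 (limma, adjusted p = 8.5e-05), 2.32 ± 0.32 at D7 (adjusted p = 0.000185) and 2.27 ± 0.32 in Chronic (adjusted p = 0.000404), which is about 5.0-fold at D3 and D7 and 4.8-fold in Chronic. Between the pilocarpine groups, D7 differed from D3 by 0.00 ± 0.28, with a 95% interval of -0.58 to 0.59, and Chronic differed from D7 by -0.05 ± 0.28, with a 95% interval of -0.64 to 0.53, so that a change of up to about 1.5-fold between times is not resolved.

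Igf1 was thus 1 of 9 members called higher at each time, where 5.09% of all named genes were called higher at D3, 3.8% at D7 and 2.87% in Chronic. No member was called lower against Control by 1 probe per gene, where the share of all named genes called lower was 0.973% at D3, 0.487% at D7 and 0.673% in Chronic. At an unadjusted p under 0.05, limma gave 2, 2 and 1 members at the 3 times, where 34.2%, 32.1% and 29.4% of all tested probes passed, and the methods' t-test gave 1 each, where 37.3%, 26.3% and 25.7% passed. Igf1 was among the genes that the study picked on these samples, so that its call is not independent evidence. The study also measured Igf1 by real-time PCR and reported a significant difference from controls at each time. With only the saline array of the same time, an arm of 1 array whose spread is assumed from the pilocarpine groups, the differences were 2.35, 2.17 and 2.40 (adjusted p = 0.0141, 0.0364 and 0.0579, limma), so that the Chronic call was lost without a smaller difference. The spread of Igf1 was largest at D7, where the array of replicate 33 had more than double the median of its group, and without that array the D7 difference was 2.05.

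**Figure D1:**
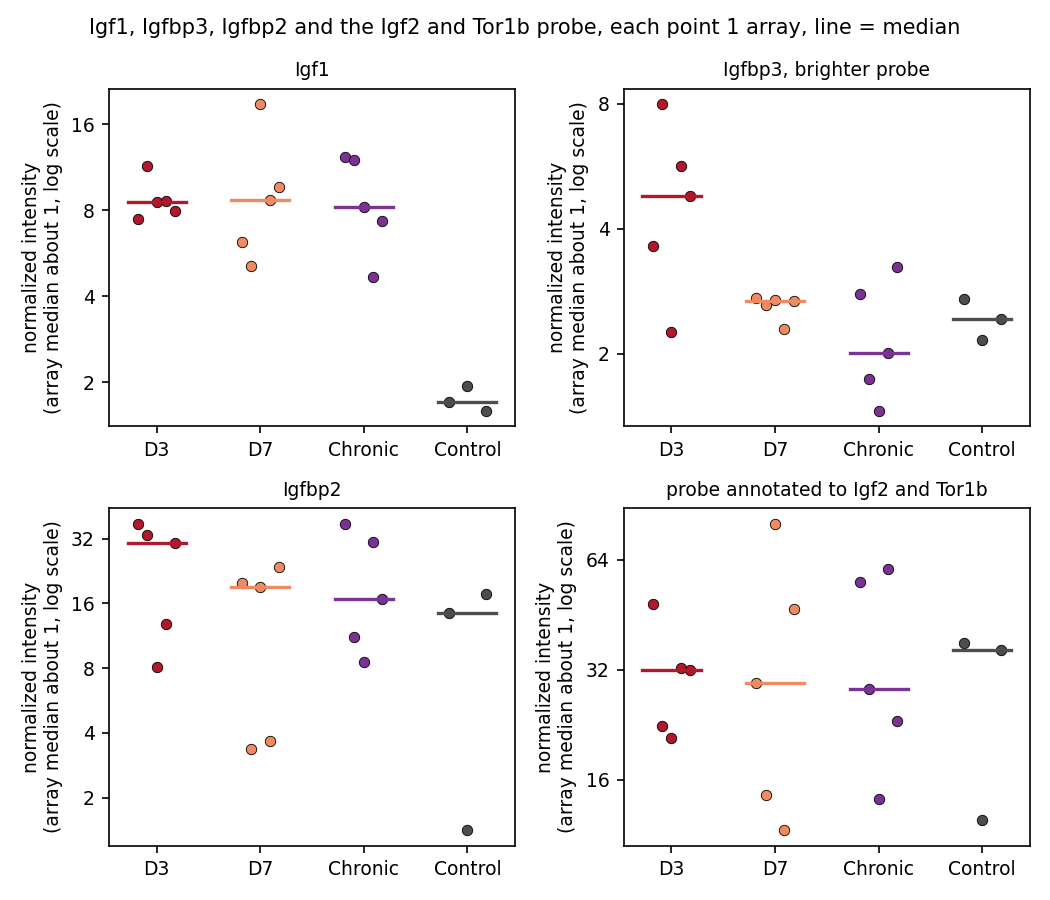
Normalized intensity (log axis) of Igf1, the brighter Igfbp3 probe, Igfbp2 and the probe annotated to both Igf2 and Tor1b in the D3, D7, Chronic and Control arrays; each point is 1 array and each line a group median. The Igf1 points of the pilocarpine groups lie between 4.68 and 18.7, all above the Control points at 1.58 to 1.94, whereas the other 3 probes overlap between every pilocarpine group and Control.

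Microglial genes moved in the same samples as Igf1. The summed intensity of the 13 markers was 301 to 370 at D3, 212 to 593 at D7, 193 to 364 in Chronic and 92.2 to 106 in Control, so that every pilocarpine array was above every Control array here as well. At D7, the array with the highest sum, replicate 33 at 593, also had the highest Igf1, and the array with the lowest sum, replicate 32 at 212, had the lowest. In Chronic, replicate 44 had the lowest sum, 193, and the lowest Igf1, 4.68, but replicate 45 had the highest sum, 364, with an Igf1 of 7.30, below the group median. At D3, replicate 11 had the highest sum, 370, and the lowest Igf1, 7.44. Aif1, a calcium-binding protein of microglia, was above Control by 1.37 ± 0.28 at D3, by 1.38 ± 0.28 at D7 and by 1.02 ± 0.28 in Chronic. Cd68, a lysosomal protein of phagocytes, was above Control by 3.50 ± 0.48, 3.40 ± 0.48 and 3.16 ± 0.48 at these times. Fcer1g and Cd163, of the same list, were not called at any time. The part of these cells in the Igf1 result was not tested.

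**Figure D2:**
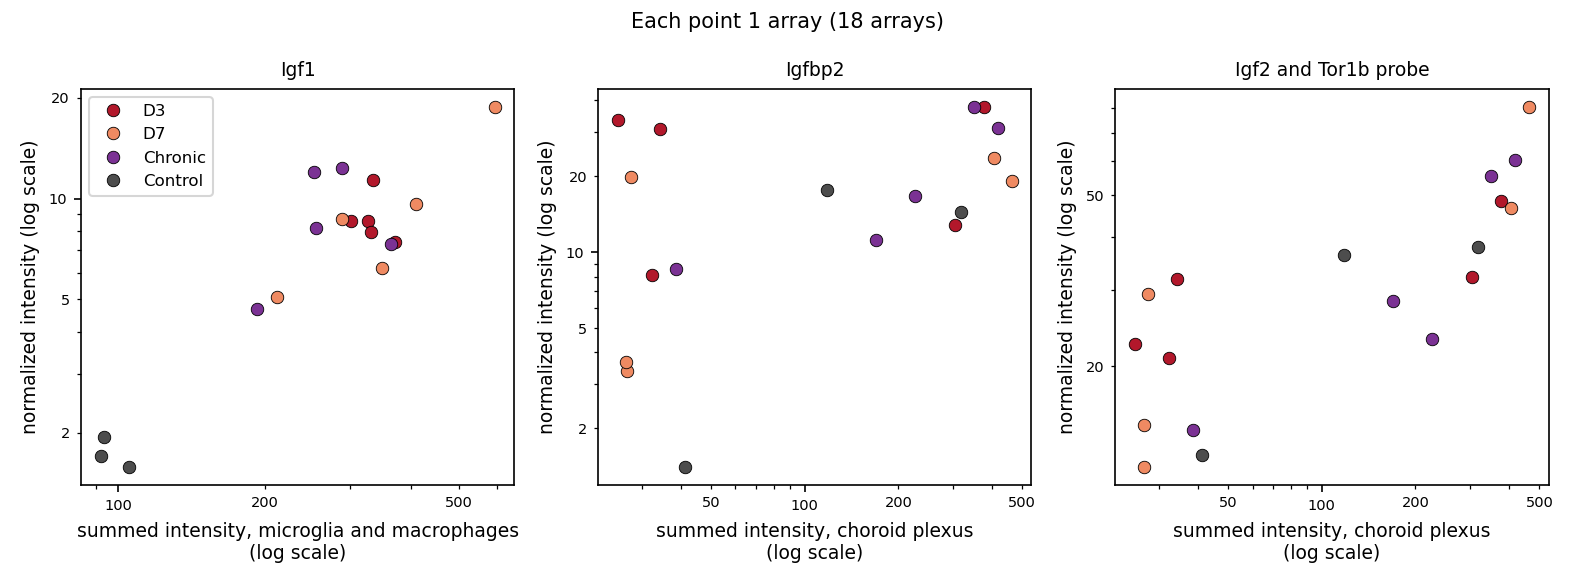
Normalized intensity of Igf1 against the summed intensity of 13 microglia and macrophage markers (left), and of Igfbp2 (middle) and the Igf2 and Tor1b probe (right) against the summed intensity of 15 choroid plexus markers, on log axes; each point is 1 of 18 arrays, coloured by group. The Control arrays lie apart from the pilocarpine arrays on both axes of the left panel, and the groups are mixed in the other panels.

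Among 11184 other named genes measured on all 18 arrays, the 3 whose pattern was nearest to Igf1 were Tnfsf4, Mrgprx3 and Cyp2d1. Nearness was the root mean square difference of log2 values, each gene centred on its own mean, and it was 0.27 for Tnfsf4, 0.31 for Mrgprx3 and 0.34 for Cyp2d1, beside a root mean square deviation of 0.97 for Igf1 itself. Tnfsf4, which encodes a costimulatory ligand of the tumour necrosis factor family, had intensities of 0.906 to 1.41 at D3, 0.821 to 2.42 at D7, 0.844 to 1.44 in Chronic and 0.181 to 0.335 in Control. Its Control spots were all flagged low, and it was at least 3.94-fold higher at D3, 4.72-fold at D7 and 4.08-fold in Chronic. These genes were chosen for their likeness to Igf1 on the same arrays, so that their differences from Control are a description and no test is given. Mrgprx3, a receptor of the Mas-related family, was also flagged low in every Control array and was at least 2.99-fold, 3.37-fold and 3.17-fold higher. Cyp2d1, a cytochrome P450, was flagged good on 1 of 3 Control arrays and had changes of 1.87 ± 0.33, 2.21 ± 0.33 and 2.01 ± 0.33 at the 3 times.

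The annotated Igf2 probe gave no measurable signal. It is described in the files as lying in the 5′ flanking region of the Igf2 mRNA, and its spot was flagged low on all 18 arrays, with intensities of 0.102 to 0.223 at D3, 0.00413 to 0.297 at D7, 0.00670 to 0.289 in Chronic and 0.0578 to 0.267 in Control. The groups overlapped, and no fold is given where every spot of both groups is low. A second probe carries the Igf2 reference transcript but is annotated to both Igf2 and Tor1b, an endoplasmic reticulum protein of the torsin family, so that it falls outside the rule and is shown for comparison. It was flagged good on every array, with 22.5, 48.4, 20.9, 32.3 and 31.98 at D3, 29.4, 14.6, 80.4, 11.6 and 46.8 at D7, 55.5, 28.4, 14.2, 60.4 and 23.2 in Chronic, and 38.0, 12.4 and 36.2 in Control. The groups overlapped throughout, and the change over Control was 0.21 ± 0.55 at D3, 0.15 ± 0.55 at D7 and 0.29 ± 0.55 in Chronic (adjusted p = 0.836, 0.887 and 0.778, limma).

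Within each group, the array with the highest choroid plexus sum also gave the highest value of the Igf2 and Tor1b probe. These arrays were replicate 11 at D3 (sum 377, probe 48.4), replicate 33 at D7 (463 and 80.4), replicate 44 in Chronic (418 and 60.4) and replicate 26 in Control (317 and 38.0). Among low sums the probe varied, with 14.6 and 11.6 in D7 replicates 32 and 34 (sums of 26.8 each), 29.4 in D7 replicate 31 (27.7) and 22.5 in D3 replicate 12 (25.2). Chronic replicate 45 had a sum of 227 with 23.2 on the probe. The part of the dissected tissue in the values of this probe was not tested.

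No receptor was called against Control. At an unadjusted p under 0.05, limma gave 1 of 2 receptors, Igf2r, at D7, where 32.1% of all tested probes passed, and 0 at the other times, and the methods' t-test gave 0 throughout. Igf1r, the tyrosine kinase that carries the signal of both ligands, had on its brighter probe 2.64, 2.82, 3.08, 2.97 and 2.90 at D3, 3.93, 3.37, 2.67, 3.83 and 2.06 at D7, 2.73, 2.84, 2.96, 2.80 and 2.04 in Chronic, and 3.39, 2.18 and 3.62 in Control. The pilocarpine and Control values overlapped, with changes of -0.06 ± 0.19, 0.04 ± 0.19 and -0.17 ± 0.19 and 95% intervals that reached from -0.58 to 0.44 over the 3 comparisons. The dimmer Igf1r probe gave 0.04 ± 0.14, 0.02 ± 0.14 and -0.23 ± 0.14. A change of Igf1r by 2-fold in either direction lies outside all of these intervals.

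Igf2r had on its brighter probe 8.39, 7.34, 7.48, 8.17 and 8.98 at D3, 5.33, 7.59, 7.87, 7.38 and 7.22 at D7, 7.94, 7.26, 6.97, 7.77 and 6.87 in Chronic, and 7.68, 8.32 and 9.09 in Control. The changes were -0.05 ± 0.12, -0.25 ± 0.12 and -0.18 ± 0.12 (adjusted p = 0.805, 0.143 and 0.319, limma), and under quantile normalization the signs at D3 and in Chronic turned to 0.10 and 0.00. The second Igf2r probe gave 1.53, 1.53, 1.77, 1.58 and 1.31 at D3, 1.83, 1.93, 1.65, 1.602 and 1.56 at D7, 1.39, 2.19, 2.28, 2.12 and 2.00 in Chronic, and 2.11, 2.57 and 2.18 in Control. On this probe all D3 and D7 arrays lay below all Control arrays, whereas the Chronic arrays overlapped with them. Its change at D3, -0.57 ± 0.15, passed the adjusted p (0.00977) but not the fold limit, as 16.5% of all named genes did in that direction by the adjusted p alone, and its changes at D7 and in Chronic were -0.41 ± 0.15 and -0.21 ± 0.15 (adjusted p = 0.0574 and 0.378). The 2 probes of Igf2r therefore gave different sizes of change at D3.

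**Figure D3:**
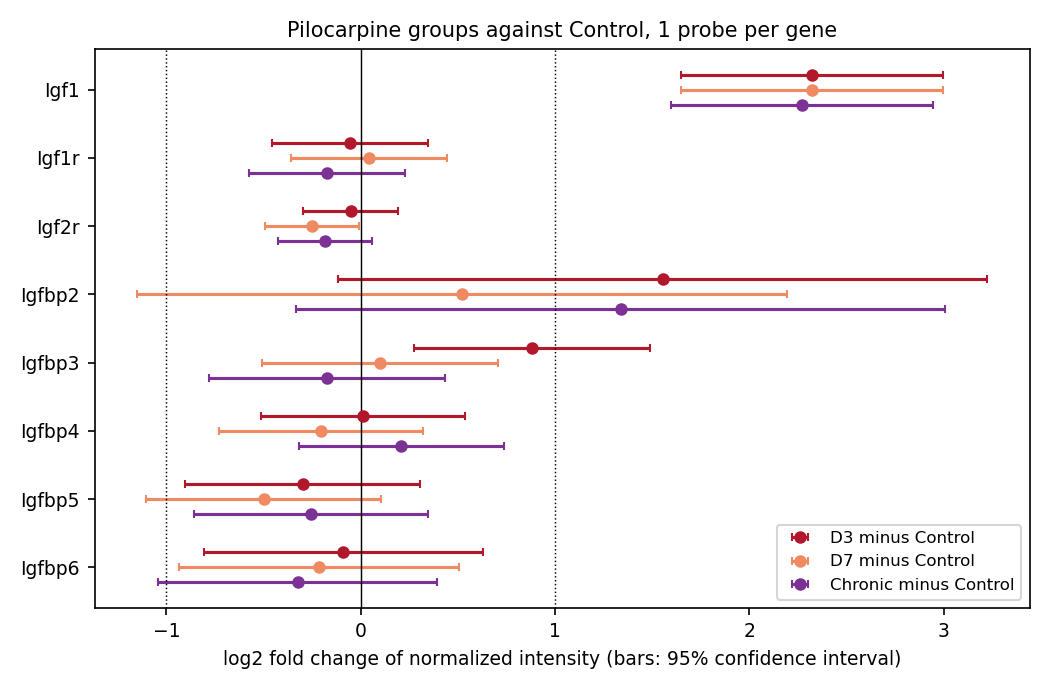
Log2 fold change of normalized intensity for 8 members, with 1 probe per gene, at D3, D7 and Chronic minus Control; points are limma estimates, bars are 95% confidence intervals, and dotted lines mark 2-fold. Igf2 is left out because its probe was flagged low everywhere, and only the Igf1 intervals lie wholly beyond the upper dotted line.

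Igfbp3, the main carrier of IGF-I in blood and a protein of vascular and stromal cells, was highest at D3. Its brighter probe had 7.96, 3.64, 2.25, 5.66 and 4.80 at D3, 2.71, 2.62, 2.69, 2.29 and 2.67 at D7, 2.78, 1.74, 1.45, 2.00 and 3.24 in Chronic, and 2.71, 2.16 and 2.42 in Control. Of the D3 arrays, 4 lay above every other array, and replicate 13 lay among the Control values. The change at D3 was 0.88 ± 0.29 (limma, adjusted p = 0.0345), below the fold limit, and 11.8% of all named genes passed the adjusted p alone in that direction. At D7 it was 0.10 ± 0.29 and in Chronic -0.17 ± 0.29 (adjusted p = 0.850 and 0.749).

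Between the pilocarpine groups, Igfbp3 was lower in Chronic than at D3, with a change of -1.06 ± 0.25 (limma, adjusted p = 0.0274), the only member called between times, where 0.997% of all named genes were called lower in that comparison. This call was lost without any 1 of 6 arrays, namely D3 replicates 12, 14 and 15 and Chronic replicates 42, 43 and 44, with changes of -1.03 to -0.85 and an adjusted p of at most 0.0849. The difference of D7 from D3 was -0.78 ± 0.25 (adjusted p = 0.168), and without D3 replicate 13 it was -1.03 and was called (adjusted p = 0.0283). The dimmer Igfbp3 probe changed in the same direction by 0.43 ± 0.24 at D3 against Control (adjusted p = 0.207) and by -0.60 ± 0.20 in Chronic against D3 (adjusted p = 0.130). No member was called for D7 minus D3 or for Chronic minus D7 by limma, where 0.527% and 0.0405% of all named genes were called in either direction. At an unadjusted p under 0.05, limma and the methods' t-test each gave 1 member, Igfbp3, for D7 minus D3, and 0 for Chronic minus D7, where limma passed 12.7% and 10.1% of all tested probes.

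Some fibroblast markers and 1 mural cell marker were also called higher at D3. Of 7 mural cell markers, Tagln, a smooth muscle actin-binding protein, was called higher at D3 (1.92 ± 0.43, adjusted p = 0.00376, limma), and the summed intensity of the list was 38.3 to 62.6 at D3, 23.3 to 46.0 at D7, 26.1 to 32.1 in Chronic and 21.1 to 49.0 in Control. Pdgfrb, Rgs5 and Acta2, the first genes of that list, were not called. Of all named genes, 5.09% were called higher at D3, 3.8% at D7 and 2.87% in Chronic. Of 12 measured markers of meningeal and perivascular fibroblasts, Slc6a13, Aldh1a2, Bgn and Fbln1 were called higher at D3 and none at D7 or in Chronic. Col1a1 and Col1a2, the first measured genes of that list, were not called. Of the 12 markers, 4 had a change below 0 at D3. The summed intensity of this list was 64.3 to 90.7 at D3, 48.6 to 68.4 at D7, 43.6 to 72.4 in Chronic and 46.3 to 68.8 in Control. D3 replicate 12, with the highest Igfbp3, had the highest sum of both lists. D3 replicate 13, with the lowest Igfbp3, had the lowest mural sum of the group, but its fibroblast sum of 64.27 was nearly that of replicate 14 (64.31), which had the next highest Igfbp3 after replicate 12. In Control, replicate 47 had a mural sum of 49.0 with an Igfbp3 of 2.42, within the range of the other Control arrays. The part of these cells in the Igfbp3 values was not tested.

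The sequences upstream of Igf1 and Igfbp3 are shown because these were the members with a called change on the probe that stands for the gene, Igf1 against Control and Igfbp3 between times. They are the 250 bases before the start site that RefSeq lists for each gene in the rat build GRCr8, for Igf1 at chr7:24172282-24172531 on the plus strand and for Igfbp3 at chr14:86277945-86278194 on the minus strand. Igf1 has several start sites, and a single one is listed. Capitals mark letters matched by TATANA, the TATA box, on either strand.
Igf1: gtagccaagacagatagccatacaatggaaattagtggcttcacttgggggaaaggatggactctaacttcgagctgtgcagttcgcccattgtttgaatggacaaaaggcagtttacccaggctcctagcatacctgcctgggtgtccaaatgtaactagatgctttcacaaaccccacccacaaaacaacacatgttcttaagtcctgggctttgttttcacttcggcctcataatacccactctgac
Igfbp3: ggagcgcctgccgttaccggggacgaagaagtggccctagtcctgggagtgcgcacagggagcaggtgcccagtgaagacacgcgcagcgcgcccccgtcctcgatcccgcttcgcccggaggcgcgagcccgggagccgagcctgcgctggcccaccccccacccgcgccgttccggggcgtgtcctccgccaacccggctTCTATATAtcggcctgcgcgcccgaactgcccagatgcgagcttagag
The Igfbp3 window holds 2 overlapping matches to TATANA, which begin 48 and 46 bases before the start site, and the Igf1 window holds none. Such a match occurs in 24.2% of the 33469 windows of this length. Neither window holds GGGCGG, the GC box, or TGANTCA, the AP-1 motif, on either strand, which are found in 30.5% and 6.34% of the windows. G and C make up 46.8% of the Igf1 window and 71.6% of the Igfbp3 window, beside a median of 51.2% over all windows.

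Igfbp2, the binding protein most abundant in cerebrospinal fluid and made by choroid plexus, meninges and astrocytes, varied most among the members that were above background. Its intensities were 33.2, 37.4, 8.14, 12.8 and 30.6 at D3, 19.9, 3.37, 19.2, 3.65 and 23.6 at D7, 37.6, 11.2, 8.58, 31.03 and 16.8 in Chronic, and 14.4, 1.41 and 17.7 in Control. The highest of the 18 arrays was 26.7-fold above the lowest, and every pilocarpine group overlapped with Control. The changes over Control were 1.55 ± 0.80 at D3, 0.52 ± 0.80 at D7 and 1.34 ± 0.80 in Chronic (adjusted p = 0.179, 0.703 and 0.285, limma). Their 95% intervals ran from -0.12 to 3.22, from -1.15 to 2.19 and from -0.33 to 3.01. A single Control array set much of this. Without replicate 36, the lowest of all arrays, the changes were 0.39, -0.65 and 0.17.

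The 3 arrays lowest in Igfbp2 were also low in markers of the tissues around the hippocampus, but not every array with a low choroid plexus sum was low in Igfbp2. Replicates 32 and 34 at D7, at 3.37 and 3.65, had choroid plexus sums of 26.8 and fibroblast sums of 50.7 and 48.6, and Control replicate 36 had 41.4 and 46.3. Replicates 12 and 15 at D3, with 33.2 and 30.6, had low choroid plexus sums, 25.2 and 34.5, and the 2 highest fibroblast sums of all arrays, 90.7 and 82.2. Replicate 11 at D3, with 37.4, had a choroid plexus sum of 377 and a fibroblast sum of 65.8. Astrocyte markers summed to 522 to 547 at D3, 488 to 514 at D7, 353 to 479 in Chronic and 404 to 416 in Control. Chronic replicate 41, the highest of all arrays in Igfbp2, had the lowest astrocyte sum, 353. The part of astrocytes or of either bordering tissue in the Igfbp2 values was not tested.

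Igfbp5, an abundant binding protein of neurons and vessels that also binds matrix, is the neighbour of Igfbp2 among the protein-coding genes of chromosome 9. Its brighter probe had 26.3, 31.1, 27.95, 24.0 and 18.8 at D3, 15.2, 12.6, 43.5, 20.1 and 30.8 at D7, 29.2, 26.2, 32.5, 26.9 and 17.9 in Chronic, and 29.6, 30.5 and 33.3 in Control. The groups overlapped, with D7 replicate 33 above every Control array, and the changes were -0.30 ± 0.29, -0.50 ± 0.29 and -0.26 ± 0.29 (adjusted p = 0.510, 0.246 and 0.608, limma). The dimmer probe had 0.585, 0.602, 0.363, 0.222 and 0.367 at D3, 0.276, 0.243, 0.330, 0.349 and 0.385 at D7, 0.892, 0.599, 1.01, 0.599 and 0.542 in Chronic, and 1.06, 0.354 and 0.652 in Control. All D7 spots of this probe were flagged low, so that D7 has only a bound, and 1 Control array, also flagged low, lay inside the D7 range.

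The dimmer Igfbp5 probe was called lower at D7 by its fitted change (bound at least 1.95-fold, adjusted p = 0.0460, limma) but not at D3 (-0.64 ± 0.34) or in Chronic (0.17 ± 0.34). Without Control replicate 26 the D7 bound was 1.5-fold, and without Control replicate 36 it was 2.59-fold. Against replicate 36 alone, the saline array of the same time, the fitted D7 difference was -0.18, with every spot on both sides flagged low. The call at D7 was lost without any 1 of 9 arrays (D3 replicates 13 and 15, D7 replicates 31, 32 and 33, Chronic replicates 42 and 44, Control replicates 26 and 47), with an adjusted p of up to 0.284. The brighter probe stands for the gene in all counts. Another probe, described in the files as the 3′ UTR of Igfbp5 but without gene annotation and so outside the rule, had 6.60 to 6.94 at D3, 5.41 to 8.09 at D7, 7.62 to 9.22 in Chronic and 8.74 to 9.80 in Control. On it every D3 and D7 array lay below every Control array, with changes of -0.45 ± 0.11 at D3, -0.40 ± 0.11 at D7 and -0.19 ± 0.11 in Chronic (adjusted p = 0.00615, 0.0168 and 0.265), under 2-fold at each time. All 3 probes were below Control at D3 and D7 in their estimate, and they differed in size and in their calls.

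**Figure D4:**
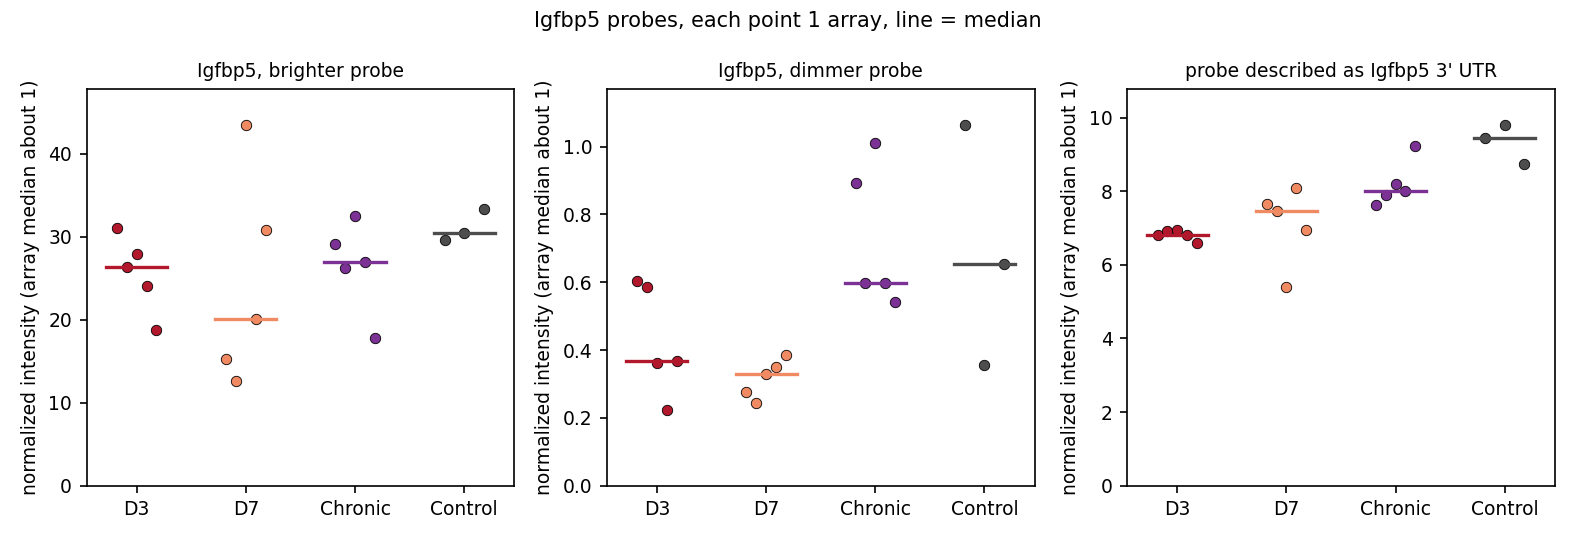
Normalized intensity, from 0 on a linear axis, of the brighter and the dimmer Igfbp5 probe and of the unannotated probe described as the Igfbp5 3′ UTR, by group; each point is 1 array and each line a group median. The D7 points of the dimmer probe lie between 0.243 and 0.385, all flagged low, and 1 Control point at 0.354 lies among them.

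Igfbp4 and Igfbp6 did not pass the test at any time. Igfbp4, a binding protein that mostly inhibits IGF action, had 1.62, 1.93, 2.71, 1.80 and 2.47 at D3, 1.52, 2.04, 1.29, 2.67 and 1.68 at D7, 2.48, 1.55, 1.90, 2.96 and 3.47 in Chronic, and 1.93, 2.56 and 1.75 in Control. The groups overlapped, with changes of 0.01 ± 0.25, -0.20 ± 0.25 and 0.21 ± 0.25. Igfbp6, which prefers IGF-II, had 1.16, 0.584, 0.401, 0.614 and 0.773 at D3, 1.13, 0.693, 0.288, 0.588 and 0.632 at D7, 0.669, 0.726, 0.582, 0.544 and 0.371 in Chronic, and 0.676, 0.741 and 0.703 in Control. The narrow Control range lay inside that of D3 and D7, and the changes were -0.09 ± 0.34, -0.21 ± 0.34 and -0.32 ± 0.34, with 95% intervals that reach -1.04 in Chronic, so that the interval reaches a 2-fold fall there.

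The other genes of the pathway were taken from a list of 57, of which 46 were measured. Of these, 2 were called higher and 1 lower at D3, 1 higher and 0 lower at D7, and 2 higher and 0 lower in Chronic. Of all named genes, 5.09%, 3.8% and 2.87% were called higher at these times, and 0.973%, 0.487% and 0.673% lower. The median change of the 46 genes was -0.01, -0.08 and -0.02, beside -0.10, -0.12 and -0.12 over all named genes. At an unadjusted p under 0.05, limma gave 23, 19 and 16 of the 46, beside 34.2%, 32.1% and 29.4% of all tested probes. The methods' t-test gave 23, 15 and 14, beside 37.3%, 26.3% and 25.7%. Here and wherever it is used, the share of all tested probes includes unnamed probes and second probes of a gene. It is therefore not a like base for named genes with 1 brightest probe each. The 4 pathway genes called, Stc1 between times only, act as receptor adaptors or as inhibitors of the proteases that cleave binding proteins.

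Shc1, the adaptor that links the IGF-I receptor and many other receptors to Ras, was called higher at every time. It had 10.98, 10.3, 8.89, 10.04 and 11.8 at D3, 8.51, 6.29, 17.98, 6.96 and 13.04 at D7, 9.04, 7.48, 6.35, 6.55 and 10.1 in Chronic, and 2.79, 3.35 and 3.95 in Control. No pilocarpine array overlapped with Control, and the changes were 1.64 ± 0.25, 1.55 ± 0.25 and 1.23 ± 0.25 (adjusted p = 0.000218, 0.000745 and 0.00456, limma). As for Igf1 and the microglial sum, its highest value was in D7 replicate 33 and its lowest at D7 in replicate 32. Against the single saline array of the same time, with the spread again from the pilocarpine groups alone, the D7 and Chronic changes were 1.54 and 0.98 and not called (adjusted p = 0.0514 and 0.295), and the D7 call was also lost under the methods' t-test with adjustment (0.0923).

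Grb10, an adaptor that restrains insulin and IGF-I receptor signaling, was lower at D3. Its brighter probe had 3.67, 3.32, 3.67, 3.44 and 3.21 at D3, 4.56, 4.28, 2.38, 5.79 and 4.32 at D7, 3.79, 4.96, 4.26, 4.18 and 3.67 in Chronic, and 7.26, 7.82 and 6.74 in Control. No pilocarpine array reached the Control range, and the changes were -1.07 ± 0.18, -0.82 ± 0.18 and -0.81 ± 0.18 (adjusted p = 0.000533, 0.00600 and 0.00814, limma), of which the first passed the fold limit and under quantile normalization, at -0.97, did not. The second Grb10 probe was flagged low on every array, and with the mean over both probes the D3 change was -0.56 and not called (adjusted p = 0.218). The later groups were not shown to differ from D3 by the test between times (0.25 ± 0.16 and 0.26 ± 0.16, adjusted p = 0.554 and 0.432).

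Stc2 and Stc1 encode stanniocalcins, secreted proteins that inhibit the IGFBP protease pappalysin. Stc2 had 0.884, 0.820, 0.792, 1.18 and 0.866 at D3, 0.744, 0.444, 0.696, 0.463 and 0.444 at D7, 0.905, 0.420, 0.427, 1.77 and 1.43 in Chronic, and 0.279, 0.374 and 0.292 in Control. All Control spots were flagged low, below every pilocarpine array, and Stc2 was at least 2.82-fold higher at D3 and at least 2.63-fold higher in Chronic (adjusted p = 0.00639 and 0.0162, limma), while D7, at least 1.70-fold higher, was not called (adjusted p = 0.145). The Chronic call was lost without Control replicate 26 or 47 (adjusted p = 0.0705 and 0.0513), with only Chronic and Control in the fit (0.0633) and under the methods' t-test with adjustment (0.195). Against the single saline array of the same time neither call was kept (adjusted p = 0.0987 at D3 and 0.275 in Chronic), while the changes were no smaller. Stc1 was called higher in Chronic than at D3 on its brighter probe (1.14 ± 0.24, adjusted p = 0.0116, limma), with 3.25, 1.39, 1.11, 2.97 and 1.54 in Chronic, against 0.631, 0.773, 1.099, 0.951 and 0.858 at D3. Its second probe was flagged low on every array, and with the mean over both probes the difference was 0.42 (adjusted p = 0.503). The call was also lost under the methods' t-test with adjustment (adjusted p = 0.148). The difference was 0.94 without Chronic replicate 41 and 0.98 without replicate 44, below the fold limit, and those arrays also had the 2 highest choroid plexus sums of the group, 350 and 418, whose part was not tested.

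No gene of the remaining pathway groups was called against Control. In the PI3K, Akt and mTOR group of 19 genes, limma gave 10, 10 and 8 genes at an unadjusted p under 0.05, beside the same 34.2%, 32.1% and 29.4% of all tested probes, and the methods' t-test 12, 7 and 9, with medians of -0.20, -0.20 and -0.18. At an adjusted p under 0.05 without the fold limit, limma gave 7, 5 and 3 of these genes. Of 33800 tested probes, 2673, 2097 and 1643 passed in this way as higher, and 4815, 4021 and 3311 as lower. The 4 measured genes of the Ras and MAP kinase group had medians of 0.06, -0.19 and -0.15, with 1 gene, Map2k1, at an unadjusted p under 0.05 at each time by either test. Among the relatives of the binding proteins and the insulin receptors, Igfbp7, a vascular protein that binds IGFs weakly, changed by 0.54 ± 0.11 at D3 and 0.63 ± 0.11 at D7 (adjusted p = 0.00144 and 0.000987, limma), under the fold limit, and by 0.18 ± 0.11 in Chronic (adjusted p = 0.262). Ghr, the growth hormone receptor that drives Igf1 in liver, was dim and was not called (adjusted p = 0.168, 0.568 and 0.518, limma). It had 0.229 to 0.483 at D3, 0.195 to 0.388 at D7, 0.208 to 0.375 in Chronic and 0.200 to 0.241 in Control.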

How the data were processed

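Gene expression in rat hippocampus was measured on CodeLink Rat Whole Genome arrays in 15 pilocarpine-treated and 3 saline-treated samples. According to the authors, spot quantification, background subtraction and scaling were done in the scanner software and in CodeLink Expression Analysis. The deposited normalized intensities are on a linear scale and equal the background-subtracted intensity divided by 1 constant per array. The value table of the series holds the same deposited intensities, and its rows were joined to probes by their values on the 18 arrays (33826 of 33993 rows, 23 empty), so that the platform annotation could name 16740 probes. RefSeq accessions named 205 more, 165 probes name several genes and 16739 none.

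Spots flagged good or low were kept, as in the authors' filter, and others (0.699%) were set to missing. Members had no missing spot. Values under percentile 1 of an array were set to that percentile, and log2 was taken. Tested probes had 3 or more values per pilocarpine group and 2 or more in Control. The 4 groups were fitted with limma 3.58.1 (R 4.3.3, eBayes with an intensity trend), and p-values were adjusted over all 33800 probes by Benjamini and Hochberg. The script was tested on simulated data. A gene with several probes is represented by its brightest (mean log2 value). Where all spots of the lower group were flagged low, each was raised to the lowest good intensity of its array, and the fold is given as a lower bound. Marker sums add the intensities of 1 probe per gene, whatever the flag. The share of spots flagged good was 66.5% to 76.1% per array.

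All members were named, with the other pathway genes that were called, some that were not, and the 3 genes nearest to each member called against Control. Of the marker genes only a part was named. The members and the lists were chosen with earlier results of these data known, and Igf1 had been selected by the study on these samples. The authors compared each pilocarpine group with controls of the same age by Student's test, an intensity-dependent cutoff and a fold limit of 2. The methods' t-test here used the 3 pooled saline arrays and no such cutoff. A call lost under it is therefore not a result of the authors' own comparison. Alternatives changed the scaling, floor, flags, dim-probe filter, controls, spread, prior, fold limit, test, probe per gene and source, and left out each array in turn.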

Additional observations from a re-analysis of the deposited data

Results flagged for a closer look

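Single arrays stood apart from the others of their group in 4 of the 45 groups of 5 arrays tested by Dixon's criterion at 95%, which chance alone exceeds in about 1 of 20 groups. On the brighter Igf1r probe, Chronic replicate 45 had an intensity of 2.04, against 2.73 to 2.96 on the other Chronic arrays. On the brighter Igf2r probe, D7 replicate 31 had 5.33, against 7.22 to 7.87. On the second Igf2r probe, Chronic replicate 41 had 1.39, against 2.00 to 2.28. On the brighter Igfbp3 probe, D7 replicate 34 had 2.29, against 2.62 to 2.71. Each of these arrays was the lowest of its group.

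Igfbp3 was the member whose level differed between times after SE by the test of the difference itself, with a log2 change of -1.06 in Chronic relative to D3 (limma, adjusted p = 0.0274). This call was lost when some single arrays were left out and under some other settings. The dimmer Igfbp3 probe was not called (limma, adjusted p = 0.130).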

How the results depend on the processing

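Of the results tried under each alternative other than leaving out an array, 672 kept their direction and side of the threshold, 23 lost and 1 gained a call, and 6 changed sign. Leaving out 1 array gave 955, 19, 2 and 32. Igf2, whose spots are all low, was left out of these because no fold is given for it. The Igf1 difference from Control changed sign in no setting. The number of members called at D3 was 2, Igf1 and Igfbp3, with no fold limit. It was 0 at D7 under the methods' t-test with Benjamini-Hochberg adjustment (Igf1, adjusted p = 0.0616) and 0 in Chronic with only the saline array of the same time, an arm of 1. For Chronic minus D3 it was 0 with only those groups in the fit, without the intensity trend, under the adjusted t-test and with the mean over probes. Without 1 array, the number called was 1 to 2 at D3, 1 at D7, 1 in Chronic, 0 to 1 for D7 minus D3, 0 to 1 for Chronic minus D3 and 0 for Chronic minus D7.

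The values that changed sign were all uncalled. Scaling at the 75th percentile gave 0.0020 for Igf1 in Chronic minus D3 and 0.0038 for Igf2r at D3. Quantile normalization gave Igf2r 0.10 at D3 and 0.00043 in Chronic. The saline array of the same time gave Igf2r 0.067 at D3, and the mean over probes gave it 0.11 for Chronic minus D3. Without 1 array the log2 changes ranged as follows. Igf1 ranged from -0.28 to 0.19 for D7 minus D3, -0.19 to 0.16 for Chronic minus D3 and -0.25 to 0.22 for Chronic minus D7. Igf1r ranged from -0.28 to 0.081 for D3 minus Control and -0.19 to 0.19 for D7 minus Control. Igf2r ranged from -0.11 to 0.0096 for D3 minus Control and -0.031 to 0.11 for Chronic minus D7. Igfbp2 ranged from -0.65 to 1.18 for D7 minus Control and -0.56 to 0.052 for Chronic minus D3. Igfbp4 ranged from -0.10 to 0.17 for D3 minus Control. Igfbp5 ranged from -0.45 to 0.0013 for D7 minus D3 and -0.065 to 0.18 for Chronic minus D3. Igfbp6 ranged from -0.29 to 0.093 for D3 minus Control, -0.44 to 0.057 for D7 minus Control, -0.35 to 0.15 for D7 minus D3 and -0.38 to 0.11 for Chronic minus D7. The cause was not tested.

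Normexp background correction and a slide or scan block were not run, because the files give no separate background column and no slide or scan. No paired analysis was possible because replicate numbers differ between all groups. With 3 Control arrays, 1 per time, small changes are not resolved, and probes flagged low carry little information.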
